A study of Mus musculus with 12 samples.

Results

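Membrane proteins that enter an endosome are either degraded or sorted back to the cell surface and the Golgi, and the genes described here encode much of the sorting machinery. They are 34 genes: the sorting nexins outside the family of *Snx14* (26 genes), the retromer subunits (4 genes) and subunits of the WASH complex (4 genes). They were taken by gene name from the 55536 genes counted, with no measured value in the rule. Of the sorting nexins, 12 belong to the SNX-BAR group and 14 were grouped as PX-only and other sorting nexins. The study set *Snx14*-KO mice, homozygous for a single-base frameshift deletion in *Snx14* on a C57BL/6J background, against WT littermates, to ask what precedes the loss of cerebellar Purkinje cells. The allele is carried in all tissues. RNA from the cerebellum and the cerebral cortex of the same mice at 1 month of age gave 12 libraries, with 3 mice per genotype and 1 library per mouse and tissue. The 4 groups were WT cerebellum, *Snx14*-KO cerebellum, WT cortex and *Snx14*-KO cortex.

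Sorting nexins carry a PX domain, which binds phosphoinositides of endosomal membranes. Those of the SNX-BAR group also have a BAR domain, which senses and bends membrane, and pairs of them form the coats of the tubules through which cargo leaves the endosome. Retromer, a complex of VPS35, VPS29 and VPS26, selects cargo together with sorting nexins such as SNX3 and SNX27, and the VPS35 tail recruits the WASH complex, which activates Arp2/3 to build branched actin on the endosome. SNX14 itself belongs to the RGS-PX family with SNX13, SNX19 and SNX25, whose members sit at contacts of the endoplasmic reticulum rather than in these coats. Mutations of VPS35 and of WASHC5 are known causes of neurodegenerative disease in humans.

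Gene counts summed to between 16672589 and 19887427 read pairs per library. *Snx14*, the targeted gene, lay at 10.4, 10.9 and 11.2 TMM-normalized CPM (read pairs relative to library size) in the *Snx14*-KO cerebella against 63.5 to 66.9 in the WT cerebella, and at 7.68 to 8.49 in the *Snx14*-KO cortices against 53.5 to 59.8 in the WT cortices. The tissue labels were borne out by markers: all 8 cerebellar markers were higher and all 8 cortical markers lower in WT cerebellum than in WT cortex. All 34 genes were looked up in every library. Of these, 33 passed the filter on low counts. *Snx31* did not, with 0 read pairs in the 6 cerebellum libraries, where 3 read pairs would be 0.151 to 0.179 CPM, and 2 to 4 read pairs in each cortex library. Such limits cover counting error only.

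Per kilobase of exon, the genes spanned more than 2 orders of magnitude in WT tissue. *Snx32*, a paralog of *Snx5* and *Snx6* in the SNX-BAR group, had the highest value in both WT tissues, at 87.1 ± 10.1 CPM per kb in cerebellum and 98.7 ± 2.54 in cortex (SD, n = 3). *Snx3*, the PX-only sorting nexin that forms a coat with retromer, followed at 69.5 ± 3.82 in cerebellum and 79.5 ± 1.47 in cortex. At the low end was *Snx20*, known from leukocytes, at 0.124 ± 0.0462 in cerebellum and 0.236 ± 0.0952 in cortex. *Snx7* came next in cerebellum, at 0.553 ± 0.108, but stood above *Snx29* and *Snx33* in cortex, at 2.61 ± 0.110. *Snx20* rested on 9 to 39 read pairs per library. The 4 retromer genes stood close together in cortex, between 22.0 (*Vps29*) and 25.5 (*Vps26a*), where the neighbouring values of *Vps26a*, *Vps35* and *Vps26b* lay within their SDs. In cerebellum they spread from 18.4 (*Vps26a*) to 27.5 (*Vps26b*). The WASH genes were not level with each other: *Washc2*, whose product is the long-tailed subunit that binds VPS35, stood at 54.7 ± 3.60 in cerebellum, against 11.6 ± 1.50 for *Washc4*, 7.56 ± 0.403 for *Washc5* and 6.74 ± 0.551 for *Washc1*, the nucleation-promoting subunit.

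**Figure D1:**
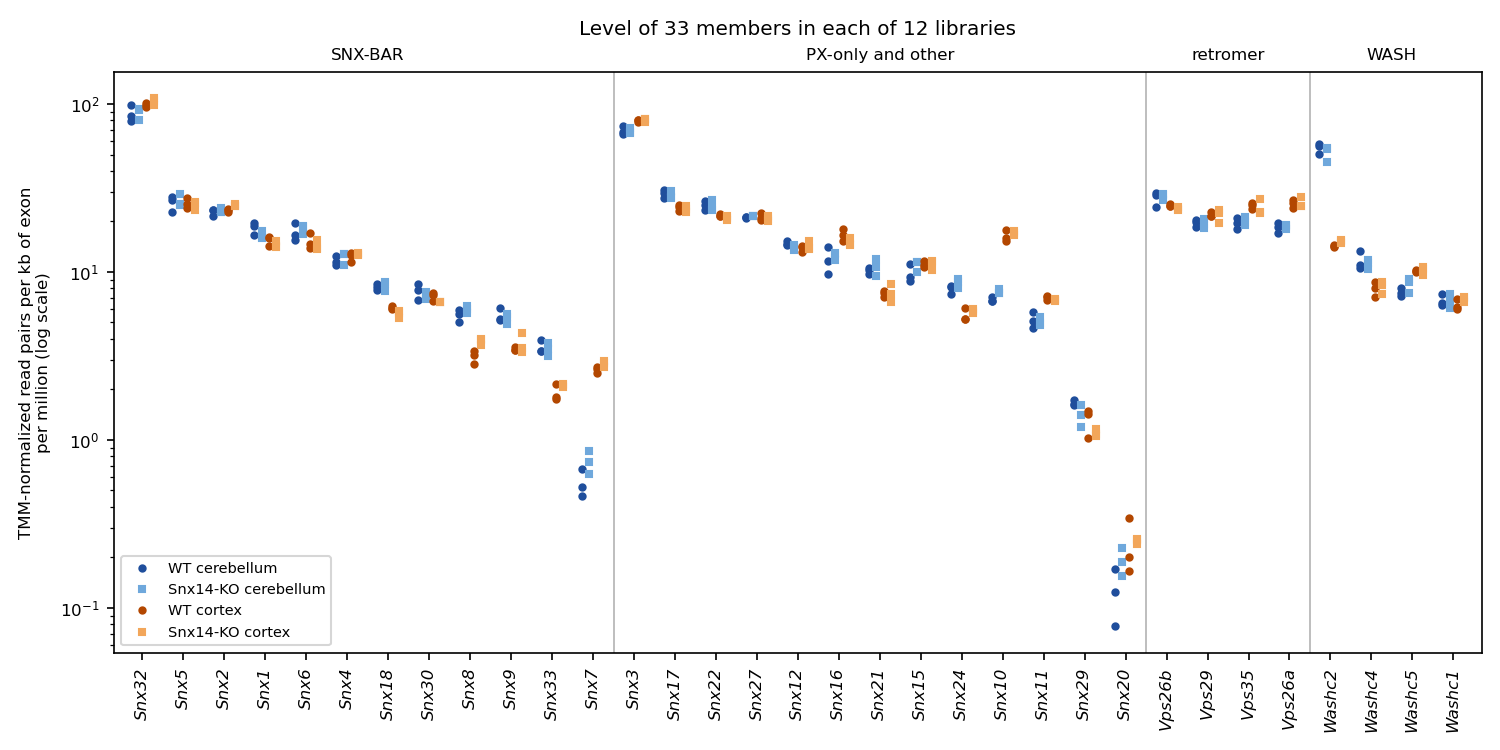
Level of 33 members in each of the 12 libraries, as TMM-normalized CPM per kb of exon on a log axis, with 1 point per library and 4 groups by colour and shape. *Washc2* sits higher in cerebellum, at 54.7 in WT, than in cortex, at 14.2, and *Snx7* and *Snx10* sit lower in cerebellum.

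Some of these counts are shared with a neighbour, because the counting ignored strand and gave a read pair to every gene it overlapped. Of the exon bases of *Snx32* (chromosome 19), 13.2% are also exon of *Cfl1* on the opposite strand, and *Cfl1*, which encodes cofilin, had 704 CPM in WT cerebellum. If *Cfl1* read pairs lay evenly over its exons, those on the shared bases would equal 37.4% of the *Snx32* count in WT cerebellum and 37.1% in WT cortex. Without them *Snx32* would stand at 54.5 CPM per kb in cerebellum and 62.1 in cortex, below *Snx3*. The same sum gave 33.5% and 32.8% for *Snx22*, which shares 28.5% of its exon bases with *Ppib*, and 17.7% and 16.7% for *Snx11*, which shares 16.2% with *Gm11537*. For *Vps29*, which overlaps *Fam216a*, it gave 10.2% and 10.5%. It gave under 5% in WT tissue for *Snx16*, *Snx17*, *Washc2*, *Snx21*, *Snx5*, *Snx30* and *Vps35*. For *Snx17* this covers *Eif2b4* alone, with 204 of its 367 shared bases. The neighbours' counts in turn hold read pairs of the members on the shared bases, which the sum did not take off. *Gm11537*, for instance, had 4.49 CPM in WT cerebellum, against 21.9 for *Snx11*. The other 23 members shared no exon base with another gene.

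Loss of *Snx14* left no call among these genes. Genes counted as called had an adjusted p below 0.05 in edgeR's quasi-likelihood test together with a log2 fold change beyond 0.5 in either direction. In cerebellum 0 of 33 members were called, where the share of all genes called was 0.00549% and that 1 gene was *Snx14*. In cortex 0 of 33 were called, against 0.00548% of all genes, again *Snx14* alone. DESeq2 called 0 of 33 members in each tissue, against 0.901% of all genes in cerebellum and 0.0493% in cortex. At an unadjusted p under 0.05 there was 1 member in cerebellum (*Snx10*), against 8.15% of all genes, and 1 in cortex (*Snx8*), against 4.5%. The median log2 fold change of the members was 0.04 in cerebellum and 0.01 in cortex, where those of all genes tested were -0.00 and 0.00.

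The intervals say how large a change could have gone unseen. In cerebellum, the 95% interval of the log2 fold change lay within 0.5 of zero for 30 of 33 members, and for 10695 of the 18201 genes tested. The exceptions were *Snx7*, *Snx20* and *Snx29*. In cortex it did so for 30 of 33 members, except *Snx8*, *Snx20* and *Snx29*, and for 11575 of 18255 genes. For these exceptions a change of more than 0.5 on the log2 scale was not excluded by the interval, the widest being that of *Snx20* in cerebellum, from -0.23 to 1.48.

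**Figure D2:**
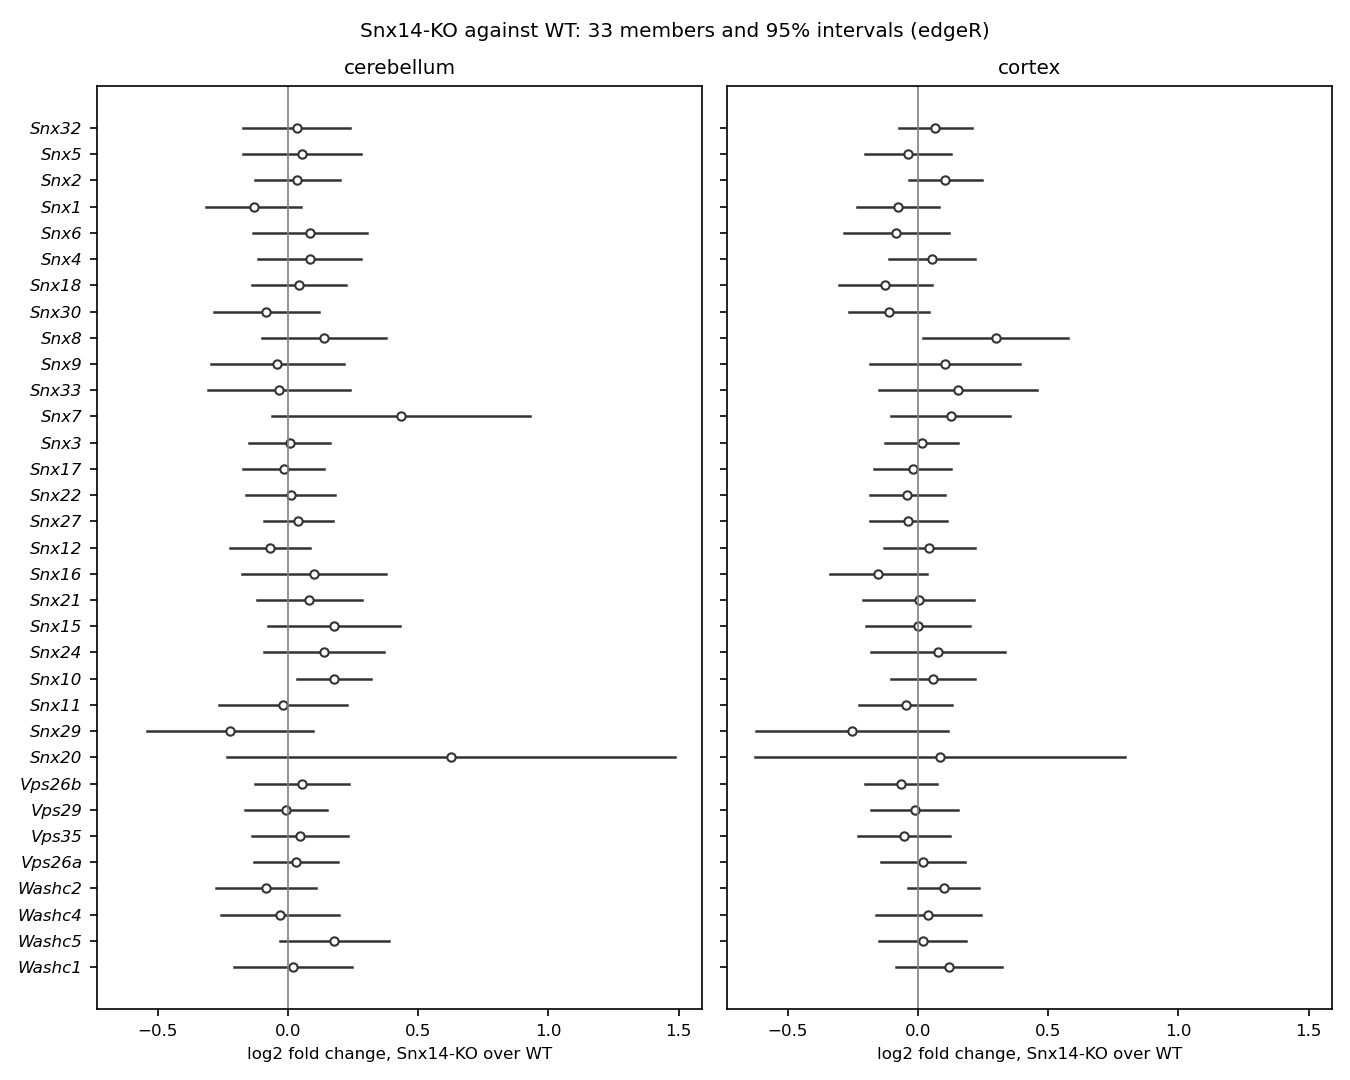
Log2 fold change of *Snx14*-KO over WT for 33 members in cerebellum (left) and cortex (right), as points with 95% intervals from edgeR. All points are open, since 0 members reached an adjusted p under 0.05, and 30 of 33 intervals in each tissue lie within 0.5 of zero.

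The retromer genes lay near zero. *Vps35*, the scaffold of the complex, had 160.5, 187 and 174 CPM in the WT cerebella and 177, 168 and 188 in the *Snx14*-KO cerebella, so the groups overlapped, with a log2 fold change of 0.05 ± 0.08 (SE). *Vps26a*, which encodes the arrestin-like cargo subunit, had 56.1, 53.1 and 48.7 CPM against 53.5, 51.8 and 54.3 (0.03 ± 0.07), and its paralog *Vps26b* 146, 150 and 124 against 146, 149 and 136 (0.05 ± 0.08). *Vps29* was at -0.01 ± 0.07. Over these 4 genes the 95% intervals ran from -0.16 (*Vps29*) to 0.24 (*Vps26b*) in cerebellum and from -0.23 (*Vps35*) to 0.18 (*Vps26a*) in cortex.

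The WASH genes were similar. *Washc5*, which encodes strumpellin, had 33.9, 31.7 and 30.6 CPM in the WT cerebella against 37.2, 31.8 and 38.6 in the *Snx14*-KO cerebella, with groups that overlapped and a log2 fold change of 0.18 ± 0.09 (SE; adjusted p = 0.711, edgeR). *Washc2* had 433, 424 and 382 CPM against 411, 405 and 341 (-0.08 ± 0.08, adjusted p = 0.908, edgeR). In cortex *Washc2* was at 109, 106 and 107 CPM in WT and at 113, 115 and 117 in *Snx14*-KO mice. These cortical groups did not overlap, but the difference was 0.10 ± 0.06 on the log2 scale with an adjusted p of 0.996 (edgeR). *Washc1* and *Washc4* were at 0.02 and -0.03 in cerebellum and at 0.12 and 0.04 in cortex.

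Among the SNX-BAR genes, the lowest p in either tissue was that of *Snx8*, a sorting nexin of early endosomes, in cortex. It had 10.9, 10.4 and 9.16 CPM in the WT cortices and 12.7, 12.9 and 11.8 in the *Snx14*-KO cortices. The groups did not overlap, and the log2 fold change was 0.30 ± 0.13 (SE; unadjusted p = 0.0378, adjusted p = 0.996, edgeR). In cerebellum the same gene was at 19.2, 18.2 and 16.2 CPM against 19.4, 18.6 and 20.3, a log2 fold change of 0.14 ± 0.11. Markers of meningeal fibroblasts also had a higher fitted level in *Snx14*-KO than in WT cortex, 10 of 10, though edgeR called 0 of them. They summed to 101 to 148 CPM in WT and 128 to 383 in *Snx14*-KO cortices, ranges that overlapped, with none of the markers at 0. All 9 endothelial and mural markers had a higher fitted level, with sums of 157 to 217 against 205 to 247 CPM, and all 10 oligodendrocyte markers a lower one, with sums of 7921 to 8196 against 5661 to 8034. Of 8 astrocyte markers 7 had a higher fitted level, with sums of 5217 to 5932 against 5443 to 6023 CPM, and the 5 choroid plexus markers tested a lower one, with sums over all 6 of 15.9 to 137 against 9.04 to 12.3. Of 12 microglial markers 9 had a higher fitted level, with sums of 507.5 to 582.9 against 532.2 to 635.4 CPM. The part of these lists in the *Snx8* value was not tested. Without *Snx14*-KO cortex replicate 2, the library with the highest meningeal and the lowest oligodendrocyte sum, the log2 fold change of *Snx8* was 0.27.

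*Snx7*, the SNX-BAR gene with the lowest level in cerebellum, had 2.83, 3.23 and 4.13 CPM in the WT cerebella and 5.25, 3.86 and 4.54 in the *Snx14*-KO cerebella. The groups overlapped, and the log2 fold change of 0.43 ± 0.22 (SE) had a 95% interval of -0.06 to 0.93 (adjusted p = 0.694, edgeR). In cortex *Snx7* was at 15.3 to 16.7 CPM in WT and 16.8 to 18 in *Snx14*-KO mice, 0.13 ± 0.11. The SNX-BAR partners of the classical tubule coat were close to equal: the log2 fold changes of *Snx1*, *Snx2*, *Snx5* and *Snx6* ran from -0.13 to 0.08 in cerebellum and from -0.08 to 0.10 in cortex. Those of *Snx4*, *Snx9*, *Snx18*, *Snx30*, *Snx32* and *Snx33* ran from -0.08 to 0.08 and from -0.13 to 0.15.

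Among the other sorting nexins, *Snx10*, known for its part in osteoclast function and in endosome homeostasis, had the lowest p in cerebellum. It had 62.3, 66.2 and 62.3 CPM in the WT cerebella and 73.7, 69.7 and 69.9 in the *Snx14*-KO cerebella. The groups did not overlap, and the log2 fold change was 0.18 ± 0.06 (SE), with a 95% interval of 0.03 to 0.32 (unadjusted p = 0.0211, adjusted p = 0.474, edgeR; 0.723, DESeq2). In cortex, with 142 to 166 CPM in WT and 154 to 162 in *Snx14*-KO mice, the groups overlapped (0.06 ± 0.07). All 12 microglial markers also had a higher fitted level in *Snx14*-KO than in WT cerebellum, where none was at 0. Their summed level was 220 to 280 CPM in the WT and 265, 290 and 670 in the *Snx14*-KO cerebella. Without *Snx14*-KO cerebellum replicate 3, the library at 670, the log2 fold change of *Snx10* was 0.18, and the other *Snx14*-KO sums still lay at 265 and 290. All 10 meningeal markers had a higher fitted level too, with none at 0 and sums of 170 to 337 CPM in WT and 457 to 477 in *Snx14*-KO cerebella, and so did 7 of 8 astrocyte markers, with sums of 5258 to 5915 against 5890 to 7010 CPM. All 8 cerebellar markers had a lower fitted level, with sums of 6279 to 7445 CPM in WT and 5347 to 7074 in *Snx14*-KO cerebella. Endothelial and mural markers (7 of 9 higher) summed to 208 to 252 against 259 to 302 CPM, and choroid plexus markers (6 of 6 lower) to 73.4 to 7339 against 954 to 3173. Of 10 oligodendrocyte markers 8 had a lower fitted level, with a median log2 fold change of -0.08. The part of these lists, the microglial one included, in the *Snx10* value was not tested.

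*Snx20* had 0.50, 1.10 and 0.80 CPM in the WT cerebella and 1.00, 1.21 and 1.46 in the *Snx14*-KO cerebella, with groups that overlapped (0.62 ± 0.38, SE; adjusted p = 0.776, edgeR). *Snx27*, which links retromer to cargo with PDZ motifs, varied little in cerebellum, with 145 to 147 CPM in WT and 148 to 149 in *Snx14*-KO mice, a log2 fold change of 0.04 ± 0.06 although the groups did not overlap. *Snx3* and *Snx12*, its paralog, were at 0.01 and -0.07 in cerebellum and 0.01 and 0.04 in cortex. *Snx17*, the adaptor for receptors of the LDL receptor family in the retriever pathway, was at -0.02 in both tissues. The other members of the group (*Snx11*, *Snx15*, *Snx16*, *Snx21*, *Snx22*, *Snx24* and *Snx29*) were between -0.25 and 0.18 in either tissue.

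Groups that do not overlap were counted for all genes as well. In cerebellum 3 of 33 members (*Snx10*, *Snx12* and *Snx27*) had groups that did not overlap, against 12.5% of all genes. In cortex there were 7 (*Snx2*, *Snx7*, *Snx8*, *Snx18*, *Snx30*, *Vps26b* and *Washc2*), or 21.2%, against 9.24% of all genes, and their log2 fold changes lay between -0.13 and 0.30. The genotype effect was also compared between tissues in a model of all 12 libraries. In the interaction of genotype and tissue, edgeR called 0 of 33 members, against 0% of all genes tested. At an unadjusted p under 0.05 there were 0 members, against 5.68% of all genes, and DESeq2 called 0 members, against 0.186% of all genes. The smallest p was that of *Washc2* (-0.20 ± 0.11, SE, unadjusted p = 0.0879, edgeR).

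The tissues were compared within each genotype. In WT mice, 11 of 33 members were higher and 8 lower in cerebellum than in cortex at an adjusted p under 0.05 (edgeR), against 28.2% and 29.2% of all genes. The 19 members called together are 57.6% of those tested, next to 57.4% of all genes, so the share of members called was close to that of all genes. Members that differed by more than 1 on the log2 scale were fewer, 3 of 33, or 9.09%, against 23.4% of all genes. In bulk tissue, fewer cells of a type and less RNA per cell cannot be told apart. In the *Snx14*-KO mice, which are a separate set of animals, 12 members were higher and 9 lower, against 25.5% and 26.6% of all genes. Of the calls, 18 were made in both genotypes, all in the same direction, which is 94.7% of the WT calls and 85.7% of the *Snx14*-KO calls. *Snx1* was called in WT only, and *Snx6*, *Snx32* and *Vps26b* in *Snx14*-KO mice only, while the interaction called none of these.

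**Figure D3:**
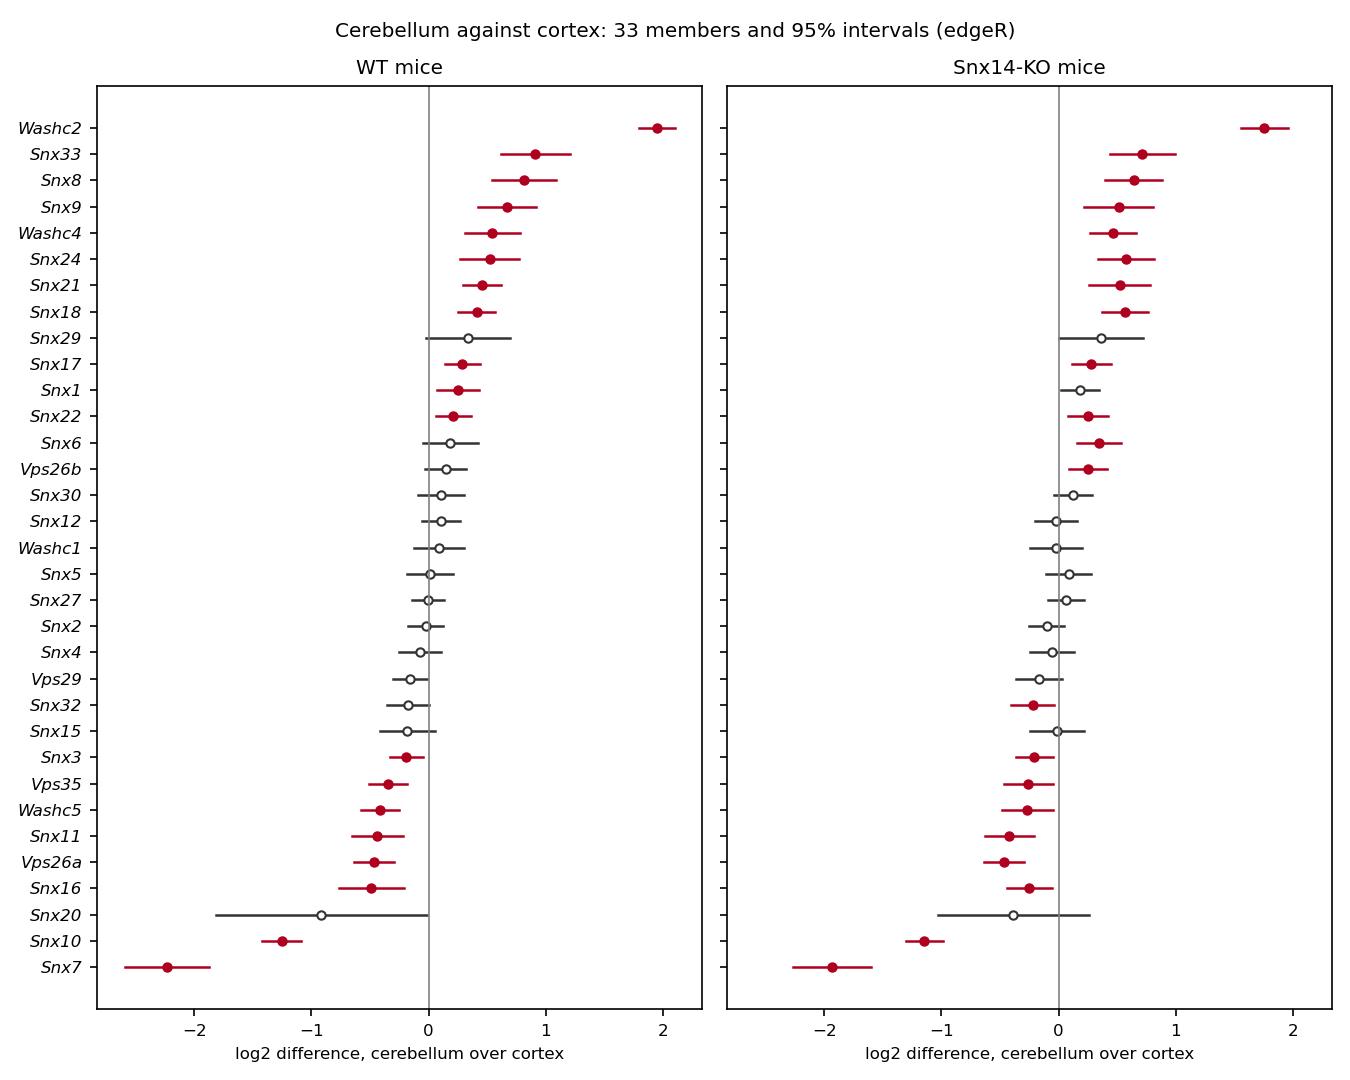
Log2 difference of cerebellum over cortex for 33 members in WT mice (left) and *Snx14*-KO mice (right), ordered by the WT value, as points with 95% intervals from edgeR. Filled red points have an adjusted p under 0.05, 19 in WT and 21 in *Snx14*-KO mice; *Washc2* is at the top and *Snx7* and *Snx10* are at the bottom in both.

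The 3 members with a difference over 1 are *Washc2*, *Snx7* and *Snx10*, and for these the 250 bases before the transcription start are shown, since their levels depart most between the tissues. The sequences are from RefSeq on GRCm38.p6, on the strand of the gene, with the *Washc2* window at chr6:116207783-116208032 (plus strand), that of *Snx7* at chr3:117868937-117869186 (minus strand) and that of *Snx10*, the first of 3 starts listed, at chr6:51523653-51523902 (plus strand). Capitals mark matches, on either strand, to the E-box CACGTG, to the CCAAT box, to the TATA box TATAAA and to the GC box, written as GGGCGG.
*Washc2*: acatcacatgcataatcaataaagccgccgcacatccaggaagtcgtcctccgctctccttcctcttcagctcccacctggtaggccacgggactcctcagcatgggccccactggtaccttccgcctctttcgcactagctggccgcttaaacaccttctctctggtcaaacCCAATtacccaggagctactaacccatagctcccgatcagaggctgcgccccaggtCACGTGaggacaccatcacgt
*Snx7*: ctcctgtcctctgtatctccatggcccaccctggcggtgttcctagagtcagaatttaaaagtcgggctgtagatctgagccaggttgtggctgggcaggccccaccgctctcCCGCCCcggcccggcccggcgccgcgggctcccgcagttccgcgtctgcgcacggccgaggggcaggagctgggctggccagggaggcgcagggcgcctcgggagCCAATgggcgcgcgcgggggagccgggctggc
*Snx10*: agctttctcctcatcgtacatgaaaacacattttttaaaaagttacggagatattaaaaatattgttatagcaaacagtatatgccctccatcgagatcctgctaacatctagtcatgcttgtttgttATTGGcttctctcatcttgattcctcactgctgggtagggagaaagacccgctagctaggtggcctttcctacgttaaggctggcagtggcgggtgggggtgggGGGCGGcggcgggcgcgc
*Washc2* holds 1 CACGTG and 1 CCAAT and no GC box, while *Snx7* and *Snx10* each hold 1 CCAAT and 1 GC box and no E-box. The other windows of *Snx10* hold no CCAAT box. Windows were found for 23 of the 34 members, and the shares that follow use the first start listed for each gene. A further start listed for *Washc1* also holds CACGTG and is not counted. CACGTG occurred in 5 of 23 (21.7%; *Snx5*, *Snx8*, *Snx18*, *Vps26a* and *Washc2*), against 6.05% of 27025 promoters in all and 7.92% of the 12854 of genes tested here. CCAAT occurred in 9 of 23, or 39.1%, against 34.5% and 35.7%. TATAAA occurred in 2 of 23, or 8.70%, against 13.0% and 6.88%. GGGCGG occurred in 16 of 23, or 69.6%, against 32.9% and 55.5%. The member windows had a median of 19 CpG dinucleotides, against 15 in the windows of the genes tested. Such matches describe letters in these windows only.

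*Washc2* was the member with the largest difference towards cerebellum. It had 433, 424 and 382 CPM in the WT cerebella and 109, 106 and 107 in the WT cortices, without overlap, 3.86-fold higher in cerebellum (log2 difference 1.95 ± 0.07, SE; adjusted p = 3.01e-09, edgeR). In the *Snx14*-KO mice the difference was 1.75 ± 0.09. Its overlapping antisense gene *Gm44103* moved with it, at 70.5 CPM in WT cerebellum and 21.0 in WT cortex, and shares 7.02% of the *Washc2* exon bases. Its read pairs on these bases would make up 2.47% and 2.84% of the *Washc2* count. Read pairs of *Washc2* on the same bases also count for *Gm44103*, and their part in the *Gm44103* difference was not tested. Of the other WASH genes, *Washc4* was higher in cerebellum by less (63.9, 80.9 and 66.7 against 53.0, 48.9 and 43.5 CPM; 0.54 ± 0.10), *Washc5* was lower (33.9, 31.7 and 30.6 against 43.6, 42.2 and 43.0; -0.42 ± 0.07), and *Washc1* was at 0.09 ± 0.10 with an adjusted p of 0.462 (edgeR). *Washc3*, the small subunit that was not among the 34, was at 0.21 ± 0.15 (adjusted p = 0.257, edgeR). The adjusted p was 0.00117 for *Washc4* and 0.000654 for *Washc5* (edgeR).

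*Snx7* and *Snx10* had the largest differences towards cortex. *Snx7* had 2.83, 3.23 and 4.13 CPM in the WT cerebella and 15.3, 16.7 and 16.1 in the WT cortices, 4.70-fold lower in cerebellum (-2.23 ± 0.16, SE; adjusted p = 8.25e-07, edgeR), on 51 to 110 read pairs per cerebellum library. *Snx10* had 62.3, 66.2 and 62.3 CPM against 148, 166 and 142, 2.38-fold lower (-1.25 ± 0.07; adjusted p = 1.80e-07, edgeR). Neither gene's groups overlapped. In *Snx14*-KO mice the differences were -1.93 ± 0.15 and -1.15 ± 0.07. The 12 microglial markers were also lower in WT cerebellum than in WT cortex, 12 of 12 called. Their summed levels were 220 to 280 against 507 to 583 CPM, with no marker at 0. The other marker lists shifted as well, with median log2 differences from -6.1 for cortical to 6.3 for cerebellar markers. The part of any of these lists in the *Snx10* difference was not tested.

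**Figure D4:**
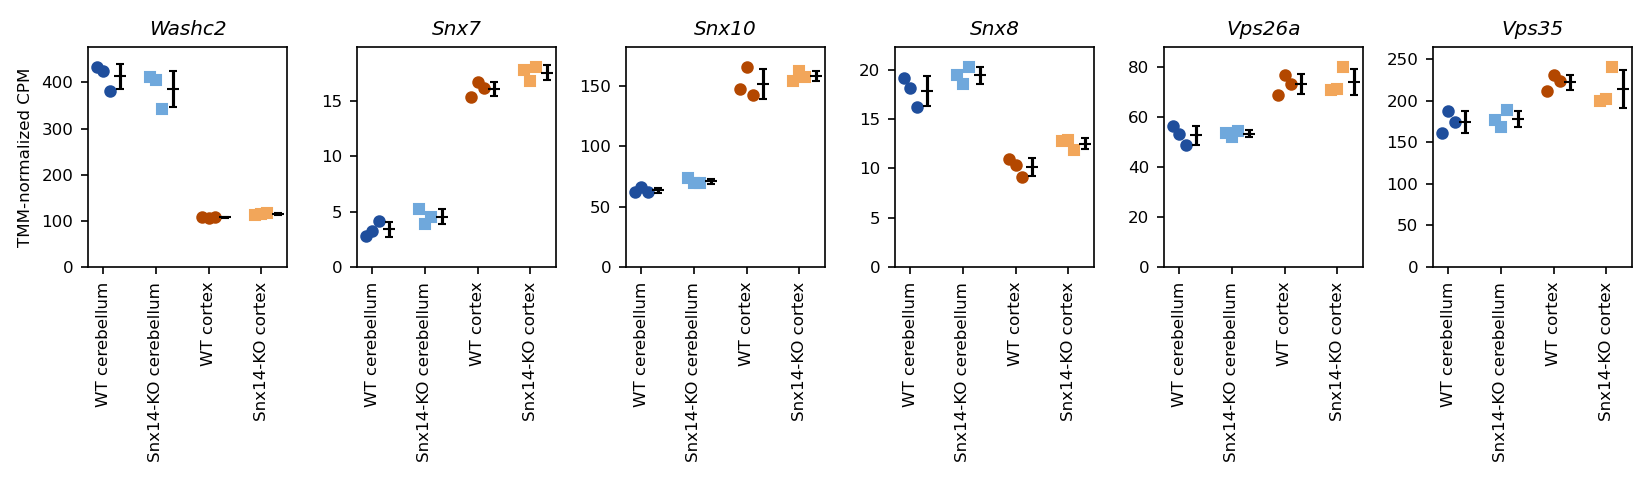
TMM-normalized CPM of 6 members in every library, with 1 point per library, the bar beside each group giving the mean and SD of 3 mice, and axes starting at 0. The tissues are separate for all 6 genes, while the genotypes lie near each other within each tissue, without overlap for *Washc2*, *Snx7* and *Snx8* in cortex and for *Snx10* in cerebellum.

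In retromer, *Vps26a* was lower in WT cerebellum, with 56.1, 53.1 and 48.7 CPM against 68.8, 76.8 and 73.1 in WT cortex (-0.47 ± 0.08, SE; adjusted p = 0.000376, edgeR). *Vps35* was lower as well, with 160.5, 187 and 174 against 212, 230 and 223 CPM (-0.35 ± 0.07; adjusted p = 0.00200, edgeR). Their groups did not overlap. *Vps29* was at -0.16 ± 0.06 with an adjusted p of 0.0551, and *Vps26b* at 0.14 ± 0.08 with an adjusted p of 0.137 (edgeR), so neither was called in WT mice.

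Among the SNX-BAR genes, *Snx33*, *Snx9* and *Snx18* encode the subfamily with an SH3 domain that acts in endocytosis with dynamin, and all of them were higher in WT cerebellum. *Snx33* had 15.5, 15.5 and 18 CPM against 9.87, 8.26 and 8.02 (0.91 ± 0.13, SE). *Snx9* had 18.9, 18.7 and 22.1 against 12.4, 13.0 and 12.4 (0.67 ± 0.11). *Snx18* had 44.2, 40.5 and 42.5 against 31.6, 32 and 32.5 (0.41 ± 0.07). The groups were separate for each of them, and the largest adjusted p was 0.000667 (edgeR). *Snx8* was higher too, with 19.2, 18.2 and 16.2 against 10.9, 10.4 and 9.16 CPM (0.81 ± 0.12, adjusted p = 0.000229, edgeR). *Snx1* was at 0.25 ± 0.08 (adjusted p = 0.0217, edgeR), a call that was lost without WT cerebellum replicate 1 or 3 or WT cortex replicate 1 or 3, where the difference was 0.19 to 0.26. *Snx2*, *Snx4*, *Snx5*, *Snx6*, *Snx30* and *Snx32* were not called in WT mice by edgeR, with values from -0.18 to 0.19. DESeq2 called *Snx32* (adjusted p = 0.0489, against 0.09 in edgeR).

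Of the other sorting nexins, *Snx24* (0.52 ± 0.11, SE), *Snx21* (0.45 ± 0.07), *Snx17* (0.29 ± 0.07) and *Snx22* (0.21 ± 0.07) were higher in WT cerebellum. *Snx16*, which binds early and late endosomes (-0.49 ± 0.12), *Snx11* (-0.44 ± 0.10) and *Snx3* (-0.19 ± 0.06) were lower, like *Snx10*. The calls of *Snx3* and *Snx22* were lost when some single libraries were left out. The *Snx22* value stands beside that of its overlapping gene *Ppib*, which encodes cyclophilin B, at 0.24. That of *Snx16* stands beside *Chmp4c*, which shares 12.5% of its exon bases, at -0.49. By the sum given above, *Chmp4c* read pairs would equal 1.13% of the *Snx16* count in either WT tissue. *Snx17* and *Snx21* overlap *Eif2b4* and *Acot8*, which were at 0.52 and 0.61. *Snx11* overlaps *Gm11537*, which was at -0.35 (adjusted p = 0.151, edgeR). Read pairs of the members on shared bases also count for these neighbours, and their part in the neighbours' values was not tested. *Snx12*, *Snx15*, *Snx20*, *Snx27* and *Snx29* were not called. For *Snx20* the WT difference was -0.92 ± 0.40 with a 95% interval of -1.82 to -0.02 (adjusted p = 0.0761, edgeR).

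Ratios within a library do not depend on the scaling between libraries, and 11 ratios between related members were compared. Cerebellum and cortex were compared over 6 libraries each by an exact permutation test (two-sided), whose smallest possible p is 0.00216, with adjustment over the 11 ratios. The libraries of both tissues come from the same 6 mice. Of the 11 ratios, 8 had an adjusted p under 0.05. *Vps26b* exceeded *Vps26a* in every cerebellum, with ratios per kb of 1.46, 1.58 and 1.43 in WT and 1.53, 1.61 and 1.41 in *Snx14*-KO mice. In cortex they were at parity, with 1.02, 0.917 and 0.997 in WT, and 0.836 to 1.02 over all 6 cortices. The difference was 0.66 on the log2 scale, in the same direction in 6 of 6 mice (exact permutation p = 0.00216, adjusted 0.00476).

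The SNX-BAR pairs of the classical tubule coat shifted less. *Snx2* was at 1.10 to 1.42 times *Snx1* in the cerebella and at 1.47 to 1.77 times in the cortices (log2 difference -0.28). *Snx6* was at 0.622 to 0.748 times *Snx5* in the cerebella and at 0.531 to 0.615 times in the cortices (0.22). Both differences had an adjusted exact permutation p of 0.00476 and held in 6 of 6 mice. The sum of *Snx1* and *Snx2*, which pair in the tubule coat with SNX5, SNX6 and SNX32, was 0.284 to 0.344 times the sum of *Snx5*, *Snx6* and *Snx32* in the cerebella and 0.269 to 0.287 times in the cortices (0.15, adjusted exact permutation p = 0.00680), ranges that overlapped. That sum holds the read pairs *Snx32* shares with *Cfl1*. *Snx30* stood at 8.17 to 18.5 times *Snx7* in the cerebella and at 2.25 to 2.91 times in the cortices, the largest shift of the 11 (2.21, adjusted exact permutation p = 0.00476).

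*Snx12* was at 0.195 to 0.221 times *Snx3* in the cerebella and at 0.163 to 0.188 times in the cortices (0.24, adjusted exact permutation p = 0.00476). *Snx33* to *Snx9* differed by 0.22 (0.640 to 0.674 against 0.496 to 0.643, adjusted exact permutation p = 0.00893), and *Snx21* to *Snx20* by 1.15 (41.7 to 136 against 20.7 to 46.9, adjusted exact permutation p = 0.00680), with libraries that overlapped in both. The ratios that did not pass were *Snx32* to *Snx5* (-0.25, adjusted exact permutation p = 0.0767), *Snx18* to *Snx9* (-0.10, 0.336) and *Vps35* to *Washc5* (0.04, 0.606). *Snx18* to *Snx9* was lower in cerebellum than in cortex in WT mice (mean 1.48 against 1.76) but not in *Snx14*-KO mice (1.57 against 1.53). *Vps35* was at 2.26 to 2.82 times *Washc5* in the cerebella and at 2.11 to 2.82 times in the cortices, with *Vps35* at -0.35 and *Washc5* at -0.42 between the WT tissues.

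**Figure D5:**
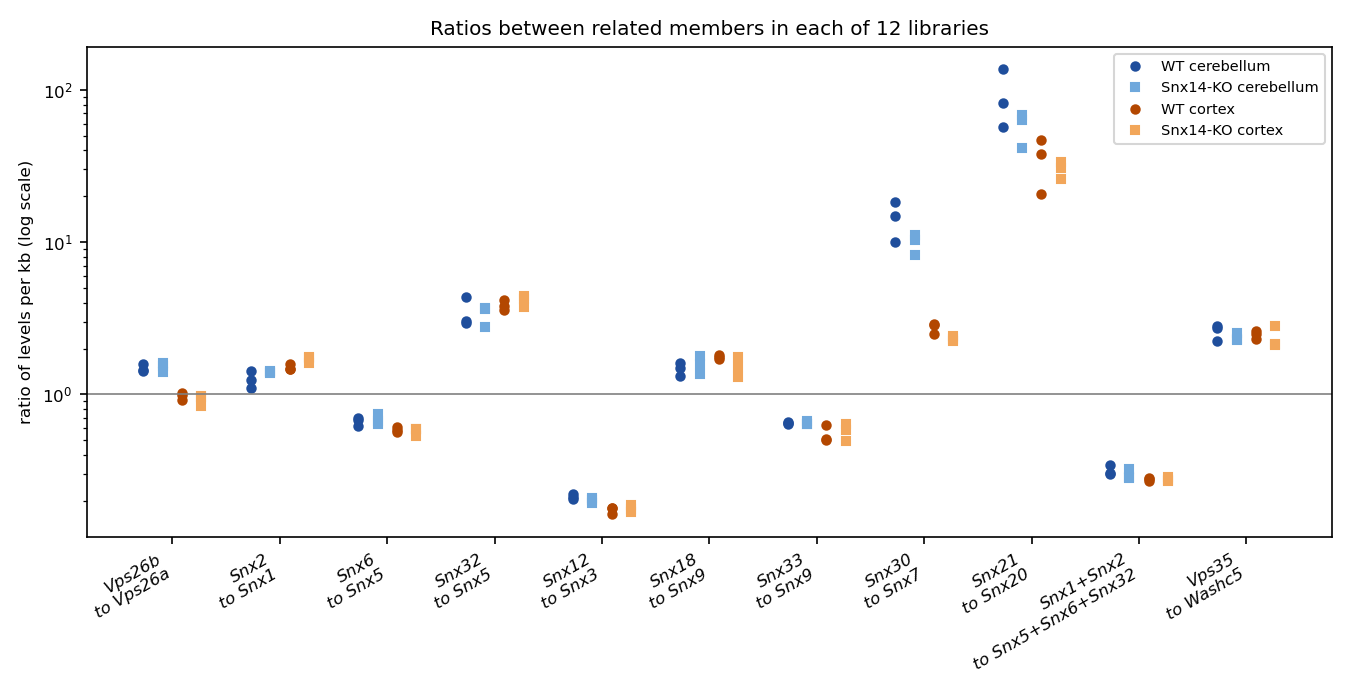
Ratio of the per-kb levels of related members in each of the 12 libraries on a log axis, with 1 point per library and 4 groups by colour and shape; the line marks a ratio of 1. *Vps26b* to *Vps26a* lies at 1.41 to 1.61 in the cerebella and at 0.836 to 1.02 in the cortices, and *Snx30* to *Snx7* separates the tissues most.

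Between genotypes, with 3 mice against 3, the exact permutation test cannot give a p under 0.1. The ratio of *Vps26b* to *Vps26a* differed by 0.03 on the log2 scale in cerebellum and -0.08 in cortex. *Snx2* to *Snx1* was 1.58, 1.48 and 1.47 in the WT cortices and higher in each *Snx14*-KO cortex, with a mean of 1.71 ± 0.0867 (SD, n = 3), a log2 difference of 0.18. *Snx30* to *Snx7* was lower in each *Snx14*-KO cortex, a difference of -0.24. For these ratios the exact permutation p was 0.1 (adjusted over the 11 ratios, 0.55). The other 9 ratios overlapped between genotypes in cortex, and all 11 did in cerebellum. The largest differences in cerebellum, -0.61 for *Snx21* to *Snx20* and -0.52 for *Snx30* to *Snx7*, involve the lowest-count members.

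The genes that act beside these members were looked up from lists of related genes. None of the 15 partners of retromer and WASH, 14 genes of retriever and its CCC complex, 9 Arp2/3 genes or 20 cargo genes was called between genotypes in either tissue by edgeR or DESeq2. The median log2 fold changes in cerebellum were 0.05, -0.03, 0.02 and 0.00 in that order. At an unadjusted p under 0.05 these lists held *Arpc1b* (0.51 ± 0.15, SE, adjusted p = 0.38), *Arpc5*, *Igf2r* and *Sorcs2* in cerebellum and *Capza1*, *Commd2* and *Slc2a1* in cortex (edgeR), beside 8.15% and 4.5% of all genes. The marker lists stand beside the cerebellar values as beside *Snx10*. All 12 microglial markers (median 0.96, with 1 library at 670 CPM), all 10 meningeal markers (1.15) and 7 of 8 astrocyte markers (0.27) had a higher fitted level. All 8 cerebellar markers (-0.21) and all 6 choroid plexus markers (-0.74) had a lower one. The part of these lists was not tested. *Snx13*, *Snx19* and *Snx25*, the other RGS-PX genes, were between -0.06 and 0.01 in both tissues.

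Between the WT tissues, genes of all these lists were called by edgeR, beside 28.2% of all genes higher and 29.2% lower in cerebellum. Of the 9 Arp2/3 genes, whose products carry out the actin branching that WASH starts, 7 were lower in cerebellum and 0 higher, with a median log2 difference of -0.50, against 0.02 for all genes. All 12 microglial markers were lower in the same comparison, with a median of -1.16. The other marker lists shifted as well, with medians from -6.1 for cortical to 6.3 for cerebellar markers. The part of any of these lists in the Arp2/3 values was not tested. *Arpc3* was at -0.89 ± 0.07 (SE) and *Actr2* at -0.67 ± 0.07. Of the 15 partners 7 were lower (*Ankrd27*, *Capza2*, *Capzb*, *Dnajc13*, *Hgs*, *Pik3c3* and *Tbc1d5*) and 2 higher (*Capza1* and *Rab21*). *Ankrd27*, which encodes the retromer partner VARP, was at -0.73 ± 0.09, and *Tbc1d5*, which encodes a RAB7 GTPase-activating protein bound by retromer, at -0.62 ± 0.08. Of the 14 retriever and CCC genes 4 were higher (*Commd1*, *Commd5*, *Vps26c* and *Vps35l*) and 2 lower (*Commd8* and *Commd10*). DESeq2 did not call *Commd5* (adjusted p = 0.108), *Vps26c* (0.0890) or *Hgs* (0.05002), and it also called *Rab7* (0.0395). Of the 20 cargo genes 9 were higher and 7 lower. Among those higher were *Gria1*, *Igf2r*, *Lrp1*, *Lrp8*, *M6pr*, *Slc2a1*, *Sorl1* and *Vldlr*, and lower were *App*, *Gria2*, *Kcnj9*, *Sorcs1*, *Sorcs2*, *Sorcs3* and *Sort1*. The sorting receptors *Sorl1* and *Sort1* went opposite ways, at 1.01 ± 0.10 and -1.25 ± 0.06.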

How the data were processed

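RNA was measured in 12 libraries from 6 mice. The authors aligned trimmed reads with STAR (GRCm38) and assigned read pairs to genes with featureCounts (Subread 2.0.1), ignoring strand and counting a pair for each gene it overlapped, although the libraries were made strand specific; the deposited values are raw counts. Numbered features without a gene identifier (26248, at most 0.0632% of counts) and 97 spike-ins were left out. Genes were named with GENCODE vM21.

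Counts were tested with edgeR 4.0.16 (R 4.3.3; TMM, filterByExpr, quasi-likelihood test) over all genes, with Benjamini-Hochberg adjustment; DESeq2 1.42.0 was an alternative. SEs are the absolute log2 fold change over the root of F. Per-kb levels use TMM over all 12 libraries and merged exons. The steps were tested on simulated data. Replicates differed beyond sampling noise (chi-square per gene at least 6.42). Replicates are separate mice, and p-values measure the spread between these mice.

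The labels name the same mouse for both tissues. Deviations of the same mouse correlated at 0.0178 to 0.338 between tissues. Those of different mice of the same genotype correlated at -0.265 to 0.155, so the ranges overlapped. By rule, values per library were for members with an unadjusted p under 0.05 between genotypes, a called WT tissue difference over 1, or a place in a ratio. Values of *Snx27*, *Washc4* and other single members were added after they were seen. The members, lists and motifs were chosen with earlier results of these data known. The alternatives were DESeq2, RLE size factors, no filter, a replicate block, leaving out each library, and other sets of libraries.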

Additional observations from a re-analysis of the deposited data

How the results depend on the processing

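Members called between genotypes numbered 0 in cerebellum, in cortex and in the interaction under every alternative run: DESeq2, RLE size factors, no filter, each library left out and the replicate block, which gave 0 in each. The labels give WT and *Snx14*-KO libraries a shared number and name no pairing between them. Deviations of same-numbered libraries correlated at -0.0917 to 0.081. Same-mouse values between tissues of 0.0178 and 0.0731 fall in that range, so this measure cannot show whether the genotypes were paired. The median log2 fold change in cortex, 0.01, ranged from -0.0211 to 0.0134 when a library was left out and changed sign without WT cortex replicate 1 (-0.0211) or 3 (-0.000787) or *Snx14*-KO cortex replicate 1 (-0.00116). Members called higher in WT cerebellum than in cortex numbered 11, with 9 to 11 on leaving out a library, and 11 with the block, and those called lower 8, with 7 to 11 on leaving out a library, and 8 with the block. With all 12 libraries and genotype as a covariate they were 14 and 11, against 33.7% and 33.3% of all genes. Of the 19 calls 16 were made under every alternative. The other 3 were lost in places: *Snx1* (0.19 to 0.26 and adjusted p = 0.0523 to 0.115 without a library, edgeR; adjusted p = 0.0635 in the *Snx14*-KO libraries), *Snx3* (-0.18 to -0.16 without WT cerebellum replicate 2 or 3 or WT cortex replicate 2) and *Snx22* (0.17 to 0.21 without WT cerebellum replicate 1 or 2 or WT cortex replicate 1 or 3). In the ratios, pairing cerebellum and cortex of each mouse as a replicate block gave adjusted exact permutation p = 0.043 for the same 8 and called no other, where 6 mice allow no p under 0.0312. *Snx32* to *Snx5* ranged from -0.32 to -0.19 when a library was left out and passed the threshold without WT cerebellum replicate 1 (adjusted exact permutation p = 0.0159). Within the WT libraries alone the permutation test cannot pass 0.05, and the 11 differences kept their direction, whereas in the *Snx14*-KO libraries the mean ratio of *Snx18* to *Snx9* was 1.57 in cerebellum and 1.53 in cortex. Depth limits *Snx20* and *Snx31*, and the median half-width of the members' 95% intervals between genotypes was 0.20 in cerebellum and 0.17 in cortex.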
